A study of Mus musculus with 32 samples.

Results

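The genes described here encode the eukaryotic translation initiation factors (eIFs) and the proteins that act on them directly. Every symbol starting with Eif1 to Eif6 was taken, pseudogenes were left out, and a mean of at least 1 TPM (an mRNA level per transcript length, scaled to the same total in each library) over the 8 mice was required. Of 55 such symbols in liver, 53 passed, among 11284 genes of 20821 symbols that passed the same threshold. The choice used the mean over all mice and no difference between genotypes. Eif4e1b was listed at 0 in every mouse, Eif5a2 had a mean of 0.142 TPM, and the members nearest above the threshold were Eif3j1 at 1.88 TPM and Eif2ak4 at 3.3 TPM.

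Livers of adult Gclc WT and Gclc KO mice were compared by RNA-seq, 4 mice per genotype and 4 libraries per mouse, averaged into 1 value per mouse. Gclc WT mice carried floxed Gclc alleles (Gclc f/f) and no recombinase. Gclc KO mice carried the same alleles with a tamoxifen-activated Cre expressed from a ubiquitous locus (Gclc f/f Rosa26-CreERT2), so that Gclc, whose product catalyses the rate-limiting step of glutathione (GSH) synthesis, was deleted in the whole body and not in hepatocytes alone. All mice, controls included, were injected intraperitoneally with 150 mg/kg tamoxifen over 5 days, and livers were taken after 14 days. No group had CreERT2 without floxed Gclc, so an effect of the recombinase cannot be told apart from that of the deletion. Age in weeks and sex are not in the labels.

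Initiation begins when eIF2, bound to GTP, brings the initiator tRNA to the small ribosomal subunit together with eIF1, eIF1A, eIF3 and eIF5. The eIF4 proteins recruit this complex to the mRNA. Within eIF4F, eIF4E binds the 5′ cap, eIF4G is the scaffold and eIF4A unwinds RNA. The pathway is controlled at 2 well-known points. Stress-activated kinases phosphorylate eIF2, which then inhibits its exchange factor eIF2B, and 4E-binding proteins, when not phosphorylated by mTORC1, hold eIF4E away from eIF4G. In liver, which secretes most plasma proteins, both controls respond to nutrients and to stress of the endoplasmic reticulum.

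Gclc mRNA was 82.3, 114.1, 77.8 and 138.4 TPM in Gclc WT mice 1 to 4, against 26.9, 16.1, 18.6 and 26.8 TPM in Gclc KO mice 1 to 4, a 4.49-fold fall (limma adjusted p = 0.000612). Hepatocyte markers were abundant in every liver, with a sum of 76584 to 106476 TPM in the Gclc WT livers against 89668 to 149699 TPM in the Gclc KO livers. Some livers stood apart. Gclc WT 1 held 351.3 TPM of 10 exocrine pancreas genes, against 14.5 to 37.3 TPM in the other Gclc WT and 6.86 to 18.9 TPM in the Gclc KO mice, and Gclc WT 3 held 457.2 TPM of 6 monocyte and neutrophil genes, against 78.7 to 150.0 TPM in the other Gclc WT and 140.0 to 265.1 TPM in the Gclc KO mice. The sum of 10 Kupffer cell genes was 300.5 to 823.4 TPM in the Gclc WT livers against 863.6 to 1448 TPM in the Gclc KO livers, with 5 of the 10 genes higher, and that of 5 erythroid genes was 923 to 3739 TPM and 306.3 to 1261 TPM, with 2 lower. None of these marker genes was at 0 in all mice. Their part in the results was not tested, and in bulk tissue fewer cells of a type and less RNA per cell cannot be told apart. Xist, which is transcribed in females, was at 25.7 TPM in Gclc WT 3, 30.2 TPM in Gclc KO 2 and 22.8 TPM in Gclc KO 3, and at most 0.0225 TPM in the other 5 mice, so the genotypes differed in this respect.

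Of the 53 initiation factor genes, 8 were higher in Gclc KO livers, 0 were lower and 45 did not pass the test (limma, Benjamini-Hochberg adjustment over all 11284 genes). The 8 are 15.1% of the members, and of all genes tested 12.8% were higher and 8.61% lower, so the share that rose was near the background. At an unadjusted p under 0.05, 16 members were higher (30.2%) and 2 lower (3.77%), against 22.5% and 13.8% of all genes. The 8 genes were Eif4ebp3, Eif1a, Eif6, Eif2ak3, Eif2b3, Eif2b4, Eif4ebp1 and Eif4g2. The median log2 fold change of the members was 0.15, against 0.09 over all genes, and 40 of the 53 values were above 0.

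The balance between higher and lower genes depended on how the livers were scaled. With TPM as deposited, 59.7% of all calls were higher (1439 of 2411). With a trimmed mean of M values, which centres the bulk of the genes of each liver, it was 46.9% (1243 higher, 1410 lower), the median over all genes moved to 0.01, and the members then counted 7 higher, without Eif4g2, and 2 lower, Eif2ak1 and Eif4a2. With that scaling, 11% of all genes were called higher and 12.5% lower. The members' share called higher was near the background, while their share called lower was below it. The trimmed mean factors were 0.9099 to 1.051 in the Gclc WT livers and 0.984 to 1.114 in the Gclc KO livers. Overlap of the genotypes is read throughout on TPM as deposited, so narrow separations depend on the scaling. Without Gclc WT 1 and Gclc WT 3, the livers with high pancreas and myeloid markers, 6 members were higher, without Eif4ebp1 (adjusted p = 0.131) and Eif4g2 (adjusted p = 0.111), and 0 lower.

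**Figure D1:**
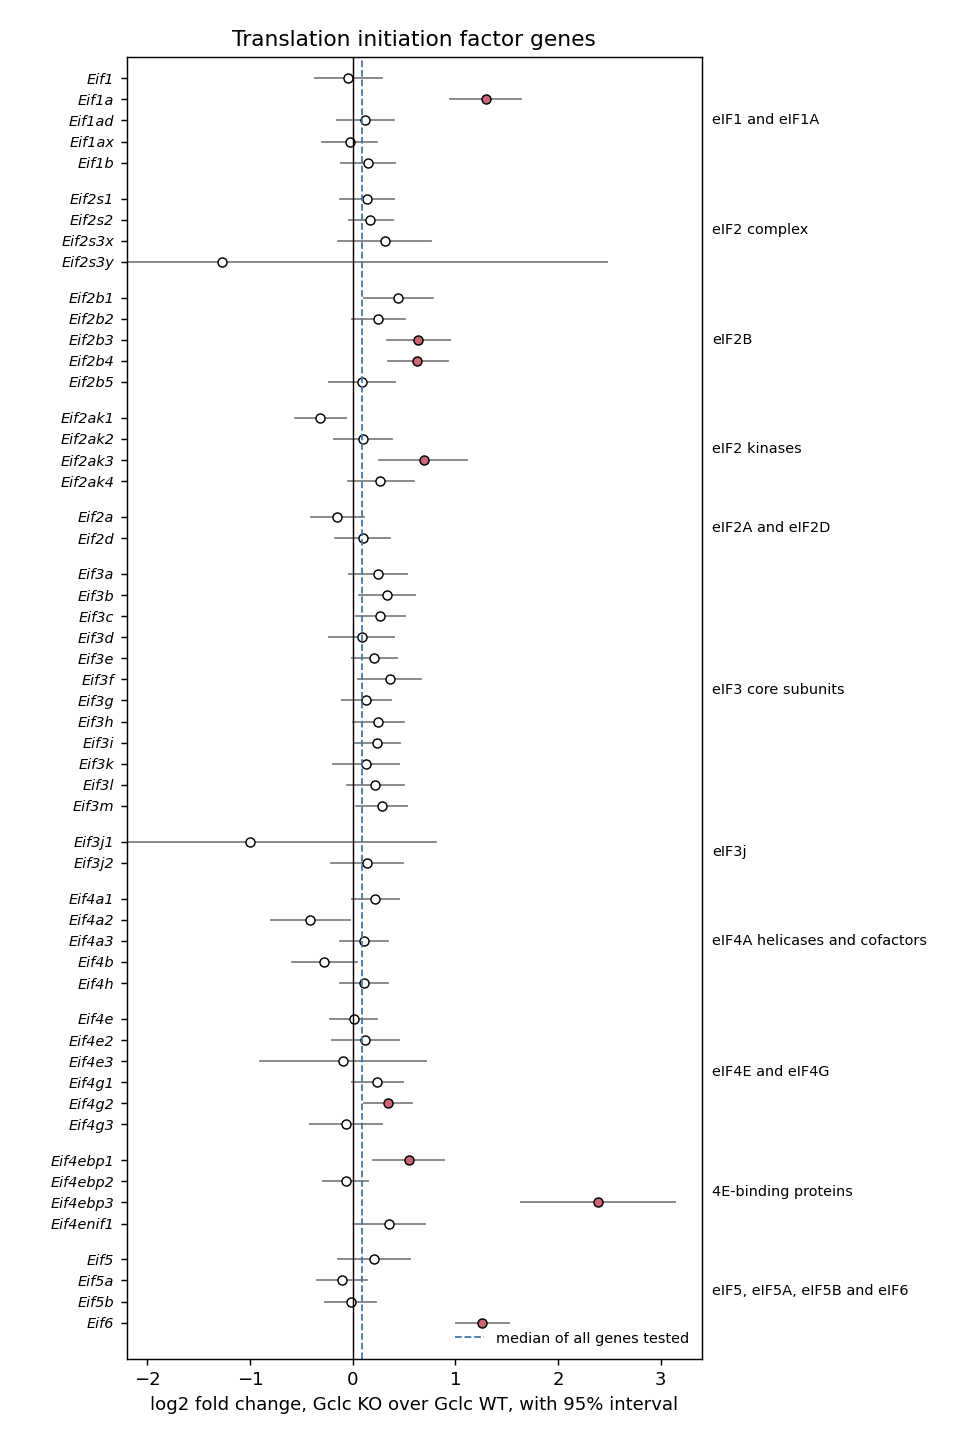
Log2 fold change, Gclc KO over Gclc WT, of the 53 initiation factor genes, by role, with 95% intervals from limma. Filled points passed the adjusted test and the dashed line marks the median of all genes tested, 0.09. The intervals of Eif2s3y and Eif3j1 run past the left edge. Only 3 members, Eif4ebp3, Eif1a and Eif6, lie above a log2 fold change of 1, and all 12 core subunits of eIF3 lie between 0.09 and 0.36.

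Promoter sequences, the 250 bases upstream of the annotated start from RefSeq (GRCm38.p6), were matched for 42 of the 53 members. They are shown for Eif2ak3 and Eif2b4, the only 2 of the 8 genes that rose for which a sequence was available. These encode a kinase and a subunit of the exchange factor at the eIF2 control point. Eif2ak3 lies at chr6:70844265-70844514 on the plus strand and Eif2b4 at chr5:31193140-31193389 on the minus strand. Capitals mark the CCAAT box, read on either strand (CCAAT or ATTGG).
Eif2ak3: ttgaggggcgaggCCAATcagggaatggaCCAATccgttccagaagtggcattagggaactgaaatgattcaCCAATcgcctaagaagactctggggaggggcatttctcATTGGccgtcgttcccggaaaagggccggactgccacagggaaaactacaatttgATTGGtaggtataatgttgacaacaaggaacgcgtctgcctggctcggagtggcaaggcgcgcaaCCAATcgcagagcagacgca
Eif2b4: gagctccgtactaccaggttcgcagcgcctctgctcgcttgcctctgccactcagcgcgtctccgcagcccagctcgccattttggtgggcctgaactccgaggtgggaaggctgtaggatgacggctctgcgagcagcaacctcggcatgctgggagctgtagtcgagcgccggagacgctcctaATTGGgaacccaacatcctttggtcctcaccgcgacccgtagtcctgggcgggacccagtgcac
The Eif2ak3 window held 6 CCAAT boxes at a GC content of 53.6%, and the Eif2b4 window 1 at 64.0%. At least 1 box was found in 13 of the 42 members (31.0%) and in 37.5% of all genes, and at least 6 in 19 of 32851 promoters (0.0578%). This motif was searched after the sequences had been seen. The core of the C/EBP-ATF element (TGATGCA), through which ATF4 acts, was in 0 of the 42 members and 3.1% of genes. The core of the antioxidant response element (TGACNNNGC), which NRF2 binds, was in 6 members (14.3%) and 11.5% of genes, and the E-box (CACGTG) in 8 members (19.0%) and 6.86% of genes. Of the 8 members that rose, 2 had a window in the promoter table, Eif2ak3 and Eif2b4, and neither window held any of these 3 motifs, which says only that these letters are absent there. Both strands were read. The last letters of the E-box can also begin the antioxidant core, and Eif5a held both motifs.

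The largest difference among the members was in a 4E-binding protein. Eif4ebp3 (Entrez 108112) encodes 4E-BP3, a repressor that binds eIF4E. Its mRNA was 102.9, 49.6, 38.1 and 71.6 TPM in Gclc WT mice 1 to 4, against 233.9, 291.0, 298.3 and 547.4 TPM in Gclc KO mice 1 to 4. Every Gclc KO liver was above every Gclc WT liver and Gclc KO 4 was the highest. The rise was 5.24-fold (log2 fold change 2.39 with SE 0.33, limma adjusted p = 0.00196). It was 2.33 in the libraries of batch 1 and 2.46 in those of batch 2, and between 2.14 and 2.64 with any mouse left out. Eif4ebp3 lies beside Ankhd1, which was not called (log2 fold change 0.37, limma adjusted p = 0.0692), and the level of Eif4ebp3 relative to Ankhd1 was 4.22 to 14.6 in the Gclc WT livers against 26.1 to 46.3 in the Gclc KO livers.

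Eif4ebp1 (Entrez 13685), the best-studied 4E-binding protein and an mTORC1 substrate, was 51.8, 52.3, 57.3 and 63.8 TPM in the Gclc WT livers against 91.8, 60.2, 90.6 and 92.1 TPM in the Gclc KO livers. Gclc KO 2 lay within the Gclc WT range and the other 3 Gclc KO mice were above it. The rise was 1.46-fold (log2 fold change 0.55 with SE 0.16, limma adjusted p = 0.0342), and the call was lost when Gclc WT 1, WT 2, WT 4, KO 1, KO 3 or KO 4 was dropped in turn, with adjusted p = 0.0813, 0.0952, 0.0502, 0.0875, 0.0848 and 0.0846, and in run 1 libraries alone (adjusted p = 0.109). Eif4ebp2, the remaining 4E-BP, was 87.6 to 105.3 TPM in the Gclc WT livers against 85.8 to 94.9 TPM in the Gclc KO livers (log2 fold change −0.07, 95% interval −0.29 to 0.15). Eif4enif1, whose product 4E-T carries eIF4E into the nucleus, was 9.52, 14.2, 13.3 and 10.3 TPM in the Gclc WT livers against 14.8, 13.7, 13.8 and 18.9 TPM in the Gclc KO livers, which overlapped (adjusted p = 0.136).

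Eif4e (Entrez 13684), the cap-binding protein that these repressors share, was nearly level across the 8 livers. It was 33.3, 30.0, 29.8 and 25.6 TPM in the Gclc WT livers against 30.4, 28.6, 29.8 and 30.1 TPM in the Gclc KO livers (log2 fold change 0.01, 95% interval −0.22 to 0.24). The summed level of the 4E-BP mRNAs was therefore 6.4 to 9.41 times that of Eif4e in Gclc WT and 13.8 to 24.3 times in Gclc KO mice. Within that sum, Eif4ebp3 made up 42.5%, 25.3%, 20% and 29.7% in Gclc WT mice 1 to 4, against 55.6%, 66.6%, 62.4% and 74.7% in Gclc KO mice 1 to 4. Eif4ebp2 supplied the largest share in Gclc WT 2, 3 and 4, and Eif4ebp3 the largest in every Gclc KO mouse. Both measures had no overlap between genotypes. They rest on the rise of Eif4ebp3, so they restate it relative to its relatives and its target.

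**Figure D2:**
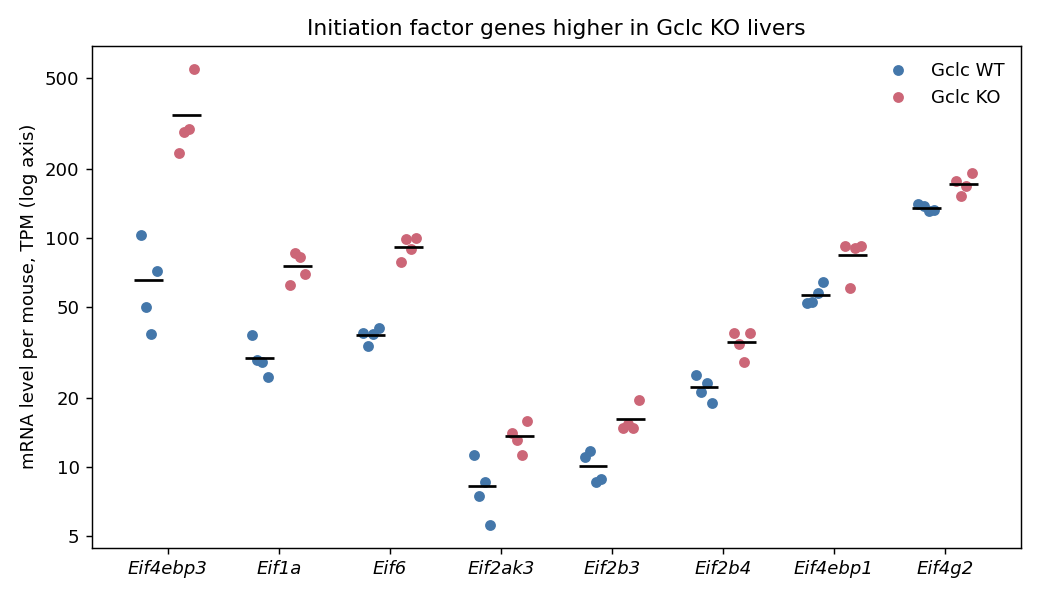
mRNA level per mouse, in TPM on a log axis, of the 8 initiation factor genes that passed the test, with the mean of 4 mice as a bar. The genotypes are separate for 6 genes, while for Eif2ak3 the lowest Gclc KO liver reaches the highest Gclc WT liver (11.2 TPM each) and for Eif4ebp1 Gclc KO 2 lies at 60.2 TPM among the Gclc WT livers.

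**Figure D3:**
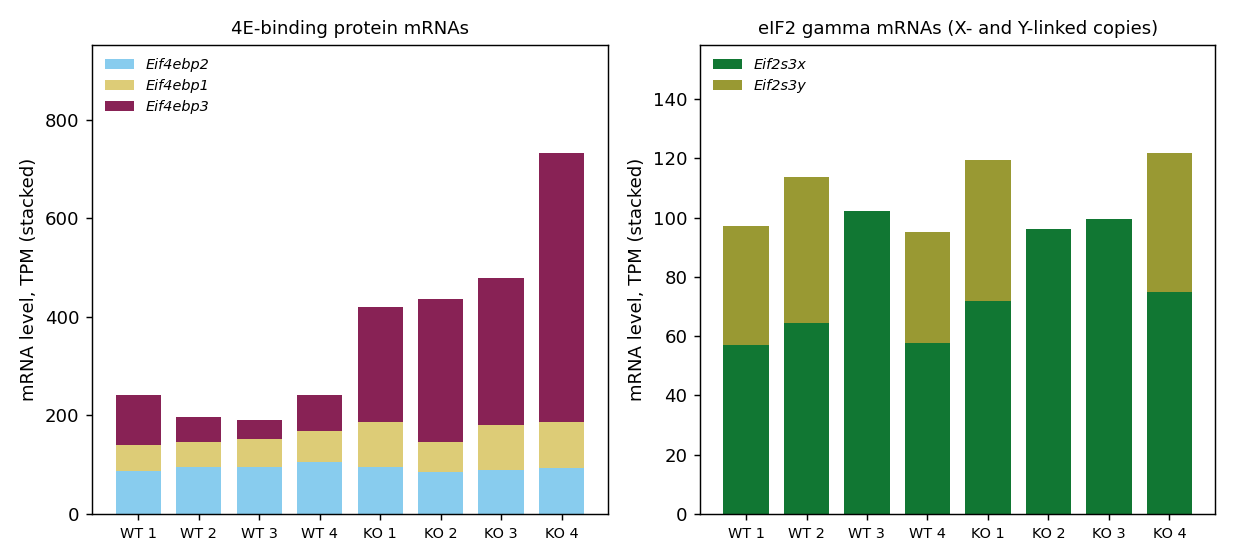
Left, the 4E-binding protein mRNAs stacked in TPM for each mouse, with sums of 190.5 to 242.3 in the Gclc WT livers against 420.5 to 733.1 in the Gclc KO livers. Right, the X- and Y-linked eIF2 gamma mRNAs stacked in TPM, where the 3 mice without Eif2s3y have the taller Eif2s3x bars and the sums of the genotypes overlap.

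The other eIF4 mRNAs differed less. Eif4g2 (Entrez 13690) encodes DAP5, a relative of eIF4G that lacks the eIF4E-binding site. It was 141.0, 137.3, 130.7 and 132.1 TPM in the Gclc WT livers against 176.3, 152.8, 168.9 and 191.9 TPM in the Gclc KO livers, with every Gclc KO liver above every Gclc WT liver. The rise was 1.27-fold (log2 fold change 0.34 with SE 0.11, limma adjusted p = 0.0447). This was the weakest of the 8 calls and held in 14 of 28 alternatives. It was lost with a trimmed mean of M values (adjusted p = 0.0899) and when any Gclc WT mouse, 1 to 4, or Gclc KO mouse 1, 3 or 4 was dropped (adjusted p = 0.0607, 0.102, 0.0766, 0.106, 0.101, 0.0833 and 0.0982). Eif4g1, the canonical scaffold, was 164.6, 165.8, 157.4 and 160.1 TPM in the Gclc WT livers against 200, 167.2, 183.6 and 217.4 TPM in the Gclc KO livers. It did not overlap in TPM as deposited, by a narrow margin, and was not called (adjusted p = 0.154). Eif4e2, which encodes the cap-binding repressor 4EHP, was 29.0, 33.4, 26.1 and 34.3 TPM and 33.2, 28.1, 31.3 and 42.3 TPM, and the genotypes overlapped (adjusted p = 0.58). Eif4g3 and Eif4e3 had log2 fold changes of −0.07 and −0.09.

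The RNA helicase eIF4A is encoded by the close relatives Eif4a1 and Eif4a2, which lay on opposite sides of 0. Eif4a1 (Entrez 13681) was 284.3, 283.0, 258.2 and 276.1 TPM in the Gclc WT livers against 318.0, 320.8, 300.3 and 345.1 TPM in the Gclc KO livers. Every Gclc KO liver was thus higher in TPM as deposited, although the gene was not called (log2 fold change 0.22, adjusted p = 0.155). Eif4a2 (Entrez 13682) was 130.4, 159.8, 137.2 and 185.9 TPM in the Gclc WT livers against 127.1, 85.4, 112.1 and 136.9 TPM in the Gclc KO livers, overlapping and not called (log2 fold change −0.42, adjusted p = 0.114), but called lower with a trimmed mean of M values (−0.51, adjusted p = 0.047). The ratio of Eif4a2 to Eif4a1, which does not depend on the scaling of a liver, was 0.459, 0.565, 0.531 and 0.673 in the Gclc WT livers against 0.4, 0.266, 0.373 and 0.397 in the Gclc KO livers, and it was lower in each Gclc KO liver than in any Gclc WT liver. This ratio was formed after the levels had been seen and was not tested. Eif4b, a cofactor of the helicase, was 118.3, 138.2, 132.9 and 150.4 TPM and 130.1, 89.3, 105.6 and 123.0 TPM, with overlap (log2 fold change −0.28, adjusted p = 0.191). Eif4h, its other cofactor, and Eif4a3, the helicase of the exon junction complex, each had a log2 fold change of 0.11.

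At the eIF2 control point, the exchange factor eIF2B held most of the called Eif2 genes. Its 5 subunit genes all had positive log2 fold changes, 0.09 to 0.64 with a median of 0.44, and 2 of the 5 were called higher (40.0%). Of all genes tested 12.8% were higher and 8.61% lower, and so small a count was not tested against that share. Eif2b4 (Entrez 13667), the delta subunit of the regulatory part, was 25.2, 21.3, 23.3 and 19.0 TPM in the Gclc WT livers against 38.4, 34.2, 28.8 and 38.5 TPM in the Gclc KO livers. All 4 Gclc KO livers were above all Gclc WT livers, a 1.55-fold rise (log2 fold change 0.63 with SE 0.13, limma adjusted p = 0.0104) that was called in all 28 alternative fits. Eif2b3 (Entrez 108067), the gamma subunit of the catalytic part, was 11, 11.7, 8.54 and 8.86 TPM in the Gclc WT livers against 14.8, 15.3, 14.8 and 19.6 TPM in the Gclc KO livers. The genotypes were again separate (log2 fold change 0.64 with SE 0.14, adjusted p = 0.0127), and the call was lost in batch 1 libraries alone (0.47, adjusted p = 0.0604) and kept in batch 2 (0.83, adjusted p = 0.0179).

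Eif2b1, the alpha subunit, was 16, 17.1, 16.3 and 23.2 TPM in the Gclc WT livers against 25.8, 26.1, 19.9 and 27.7 TPM in the Gclc KO livers. Gclc WT 4 lay above Gclc KO 3, and the gene was not called (log2 fold change 0.44, adjusted p = 0.0627), but it was called without Gclc WT 4 (adjusted p = 0.0319) or without Gclc KO 3 (adjusted p = 0.0425). Eif2b2, the beta subunit, had a log2 fold change of 0.25 (adjusted p = 0.155) and was called only without Gclc WT 3 (adjusted p = 0.0444). Eif2b5, which carries the catalytic domain, was 23.6 to 27.0 TPM in the Gclc WT livers against 20.5 to 32.2 TPM in the Gclc KO livers (log2 fold change 0.09, 95% interval −0.23 to 0.41).

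Of the 4 eIF2 kinase genes, 1 was called higher and 0 lower. Eif2ak3 (Entrez 13666) encodes PERK, the kinase of the endoplasmic reticulum, and was 11.2, 7.45, 8.57 and 5.57 TPM in the Gclc WT livers against 14.0, 13.1, 11.2 and 15.9 TPM in the Gclc KO livers. Gclc WT 1, the liver with the pancreas genes, was level with Gclc KO 3, and the other Gclc WT livers were below every Gclc KO liver. The rise was 1.61-fold (log2 fold change 0.69 with SE 0.19, limma adjusted p = 0.0304), and 0.83 on the log2 scale without Gclc WT 1 (adjusted p = 0.0174). The call was lost without Gclc WT 2, WT 4, KO 1, KO 2 or KO 4 (adjusted p = 0.082, 0.0691, 0.0712, 0.0567 and 0.0795) and in batch 2 libraries alone (adjusted p = 0.0637).

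Eif2ak1 (Entrez 15467) encodes HRI, the kinase that heme holds inactive. It was 34.9, 41.5, 35.9 and 37.4 TPM in the Gclc WT livers against 32.3, 26.0, 29.2 and 32.1 TPM in the Gclc KO livers, and was the only member lower in every Gclc KO liver than in every Gclc WT liver, a separation found for 10.2% of all genes tested. It missed the threshold (log2 fold change −0.32 with SE 0.11, adjusted p = 0.0654), and it was called lower in 7 of 28 alternatives, among them a trimmed mean of M values (−0.41, adjusted p = 0.0169) and batch 2 libraries alone (−0.33, adjusted p = 0.0444). Its gene overlaps Aimp2 and Ankrd61 in the annotation. Eif2ak4, which encodes the amino acid sensor GCN2, was 2.22, 2.91, 3.42 and 3.06 TPM and 3.75, 2.97, 4.22 and 3.89 TPM, with overlap (log2 fold change 0.27, adjusted p = 0.208). Eif2ak2, which encodes PKR, the kinase for double-stranded RNA, had a log2 fold change of 0.1 (95% interval −0.18 to 0.38).

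None of the genes of the eIF2 complex itself was called, and none passed an unadjusted p under 0.05 in limma. Eif2s1 (Entrez 13665), the alpha subunit that the kinases phosphorylate, was 26.7, 25.9, 25.1 and 21.7 TPM in the Gclc WT livers against 26.8, 23.6, 28.8 and 30.9 TPM in the Gclc KO livers (log2 fold change 0.14, 95% interval −0.12 to 0.4). Phosphorylation is not measured by RNA-seq. Eif2s2, the beta subunit, was 63.8, 72.7, 65.2 and 68.1 TPM and 75.1, 72.5, 73.8 and 83.7 TPM, overlapping through Gclc WT 2 and Gclc KO 2 (adjusted p = 0.228).

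The gamma subunit, which binds GTP and the initiator tRNA, has an X-linked and a Y-linked copy. Eif2s3y was 40.0, 49.4, 0.0 and 37.4 TPM in the Gclc WT livers against 47.7, 0.0, 0.0 and 46.8 TPM in the Gclc KO livers, listed at 0 in the 3 livers with Xist. Eif2s3x was 57.0, 64.3, 102.1 and 57.8 TPM in the Gclc WT livers against 71.7, 96.2, 99.6 and 75 TPM in the Gclc KO livers, highest in the same 3 livers (log2 fold change 0.31, adjusted p = 0.299). Without Gclc WT 3, the Gclc WT liver with Xist, Eif2s3x was called higher (0.5, adjusted p = 0.0383), although 2 of the 4 Gclc KO mice and 0 of the 3 remaining Gclc WT mice then had Xist. The sum of the copies was 96.9, 113.7, 102.1 and 95.2 TPM in the Gclc WT livers against 119.4, 96.2, 99.6 and 121.7 TPM in the Gclc KO livers, and the genotypes overlapped. Reads of such near-identical copies may be shared between them by the quantification. With mice without Xist only, 3 Gclc WT and 2 Gclc KO, 11 members were higher and 0 lower, where 15.6% of all genes were higher and 5.92% lower.

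Eif2a and Eif2d encode factors that can deliver initiator tRNA without eIF2. Eif2a was 30.7, 38.5, 37.0 and 34.7 TPM in the Gclc WT livers against 32.8, 28.7, 29.2 and 36.1 TPM in the Gclc KO livers (log2 fold change −0.15). Eif2d was 27.5, 31.0, 31.2 and 32.8 TPM and 34.3, 26.9, 34.5 and 35.9 TPM (log2 fold change 0.1). Neither was called and both overlapped between genotypes.

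eIF3 is the largest initiation factor, a scaffold on the small ribosomal subunit, and its core genes showed small and even differences. All 12 core subunits had positive log2 fold changes, 0.09 to 0.36 with a median of 0.24, and none was called by limma. At an unadjusted p under 0.05, 6 were higher and 0 lower, where 22.5% of all genes were higher and 13.8% lower. The genotypes did not overlap for 4 of the 12, Eif3c, Eif3e, Eif3h and Eif3i, all higher in Gclc KO mice, where 14.5% of all genes were separate in that direction. These 4 separations are of TPM as deposited and are narrow enough to depend on the scaling of the livers. The 3 with the smallest adjusted p were Eif3b, Eif3f and Eif3m. Eif3b, a scaffold subunit, was 63.4, 57.7, 58.8 and 54.6 TPM in the Gclc WT livers against 83.4, 63.1, 67.4 and 84.7 TPM in the Gclc KO livers, where Gclc KO 2 lay just within the Gclc WT range (log2 fold change 0.33 with SE 0.12, adjusted p = 0.0836). Without Gclc KO 2 the gene was called (0.41, adjusted p = 0.0395).

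Eif3f was 63.9, 76, 70.4 and 90.3 TPM in the Gclc WT livers against 101.2, 88.3, 85.3 and 110.1 TPM in the Gclc KO livers, and Gclc WT 4 lay above 2 Gclc KO livers (log2 fold change 0.36 with SE 0.14, adjusted p = 0.0915). Eif3m was 79.0, 74.6, 73.5 and 77.3 TPM and 104.7, 93.8, 78.0 and 96.5 TPM, overlapping through Gclc KO 3 and Gclc WT 1 (log2 fold change 0.28, adjusted p = 0.1). The remaining core genes ranged from Eif3d, at 0.09 (95% interval −0.23 to 0.4), to Eif3c, at 0.27. The median TPM over the 12 genes was 75.4 to 81.7 in the Gclc WT livers against 83.1 to 106.5 in the Gclc KO livers, highest in Gclc KO 4 and Gclc KO 1. That separation, too, is of TPM as deposited and depends on the scaling. With a trimmed mean of M values 11 of the 12 log2 fold changes were above 0, with a median of 0.15.

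The order of the core subunits by TPM, a level per transcript length, had the same lowest and highest gene in both genotypes. In Gclc WT livers it ran from Eif3a (49.9 ± 7.35 TPM, SD, n = 4), the largest scaffold subunit, to Eif3h (132.3 ± 13.5 TPM). Eif3h, at 113.2 to 144.9 TPM, did not overlap its neighbour Eif3i at 88 to 97.8 TPM, whereas every other pair of neighbours in that order overlapped, such as Eif3d at 58.3 to 67.3 TPM and Eif3f at 63.9 to 90.3 TPM. The ratio of the highest to the lowest core subunit was 2.31 to 3.37 in the Gclc WT livers against 2.49 to 3.01 in the Gclc KO livers.

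**Figure D4:**
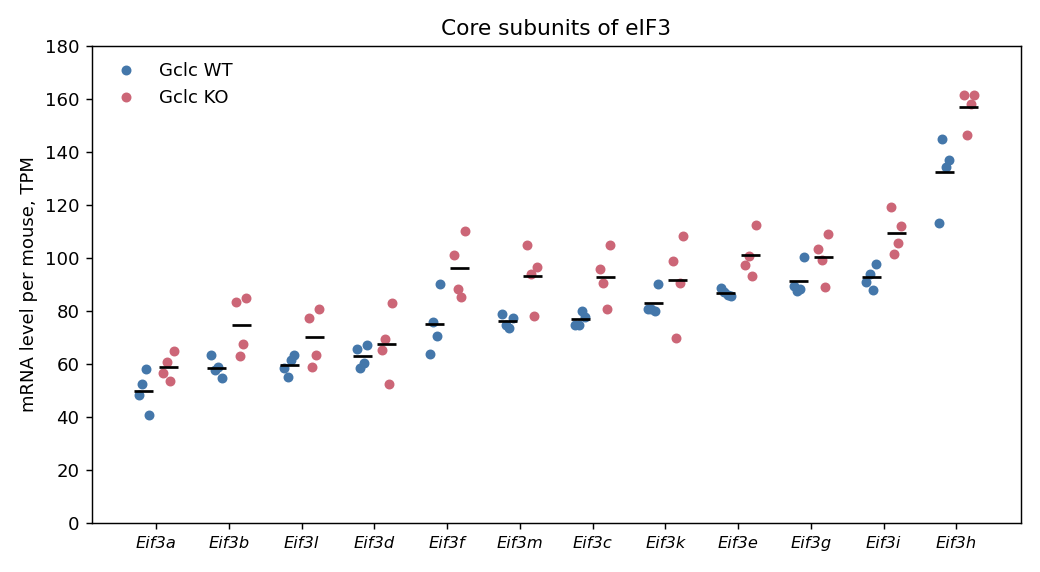
mRNA level per mouse, in TPM, of the 12 core subunits of eIF3, ordered by the Gclc WT mean, with the mean of 4 mice as a bar. The Gclc KO mean is above the Gclc WT mean for all 12 genes, and none passed the adjusted test. For Eif3c, Eif3e, Eif3h and Eif3i every Gclc KO liver lies above every Gclc WT liver in TPM as deposited, and for the remaining genes the genotypes overlap.

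The loosely bound subunit eIF3j has 2 near-identical genes in the mouse, and the table assigned each library to only 1 of them. Eif3j1 was above 0 in 1 of the 32 libraries, a Gclc WT 1 library with 60.2 TPM, and Eif3j2 in the other 31, with 46.2 to 75 TPM. The values of Eif3j1 (15.1 TPM in Gclc WT 1 and 0.0 in the other 7 mice) therefore say nothing about genotype. Their sum was 60.1, 68.2, 50.2 and 54.8 TPM in the Gclc WT livers against 61.1, 49.1, 58.8 and 71.2 TPM in the Gclc KO livers, which overlapped. Eif3j2 alone had a log2 fold change of 0.14 (adjusted p = 0.552).

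Side by side, the 3 large families differed in the spread of their log2 fold changes. The 15 Eif2 genes had 3 higher, 0 lower and a median log2 fold change of 0.17. The 14 Eif3 genes had 0 higher, 0 lower and 0.23, and the 15 Eif4 genes 3 higher, 0 lower and 0.11 (0.04 without Gclc KO 4). Across all genes tested, 12.8% were higher and 8.61% lower, with a median of 0.09. Counts as small as those of the families were not tested against these shares. The interquartile range of the log2 fold changes was 0.09 to 0.38 for Eif2, 0.13 to 0.26 for Eif3 and −0.07 to 0.29 for Eif4 genes. Eif3 genes were thus the most alike by this range, with 13 of 14 above 0, while the Eif2 and Eif4 families held all of the called genes of the 3 families and 8 of their 9 genes below 0. For each mouse, the median over a family of its log2 levels relative to the Gclc WT mean was −0.05 to 0.04 in the Gclc WT livers against 0.11 to 0.38 in the Gclc KO livers for Eif3, without overlap, and −0.08 to 0.07 and 0.03 to 0.31 for Eif2 and −0.02 to 0.02 and 0.01 to 0.31 for Eif4, with overlap. Per-mouse medians of this kind use TPM as deposited and shift with the scaling of a liver. With the trimmed mean scaling, the medians were 0.08 for Eif2, 0.14 for Eif3 and 0.02 for Eif4 genes, against 0.01 over all genes, and the Eif2 and Eif4 families each had 1 gene lower, Eif2ak1 and Eif4a2. Differences between the families were not tested. When all 32 libraries were fitted with the mouse as a random effect, 20 members were higher and 3 lower, against 18.3% and 11.9% of all genes, and 7 of the 12 eIF3 core genes were among them. That fit gives every gene the same correlation between the libraries of a mouse. Its p-values can therefore be too small for genes whose libraries agree closely.

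Of the factors that act at the ribosome, Eif6 and Eif1a were called. Eif6 (Entrez 16418) encodes eIF6, which binds the large ribosomal subunit, takes part in its assembly and keeps it from joining the small subunit too early. It was 38.3, 33.6, 37.8 and 40.2 TPM in the Gclc WT livers against 78.2, 99.0, 89.5 and 99.5 TPM in the Gclc KO livers. The lowest Gclc KO liver was far above the highest Gclc WT liver, and the rise of 2.4-fold (log2 fold change 1.26 with SE 0.11, limma adjusted p = 0.000338) had the smallest adjusted p of all members. It was 1.16 in batch 1 and 1.36 in batch 2 libraries, and between 1.21 and 1.33 with any mouse left out.

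Eif1a (Entrez 13664) encodes eIF1A, which sits in the ribosomal A site during scanning and start codon selection. It was 37.5, 29.1, 28.6 and 24.6 TPM in the Gclc WT livers against 61.9, 86.1, 82.8 and 69.2 TPM in the Gclc KO livers, with Gclc WT 1 the highest control. Every Gclc KO liver was above every Gclc WT liver, a 2.46-fold rise (log2 fold change 1.3 with SE 0.15, adjusted p = 0.00108), at 1.28 and 1.31 in the separate batches. Its X-linked relative Eif1ax was not called, at 35.6 to 48.0 TPM in the Gclc WT livers against 35.9 to 43.6 TPM in the Gclc KO livers (log2 fold change −0.03, 95% interval −0.3 to 0.24). The ratio of Eif1a to Eif1ax was 0.606 to 1.05 in the Gclc WT livers against 1.73 to 2.07 in the Gclc KO livers, and the sum of these similar genes 61.6 to 77.1 TPM and 97.8 to 129.7 TPM, neither with any overlap. The quantification may have shared reads between these relatives.

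The other members of these roles were not called. Eif1b was 29.9, 21.6, 23.7 and 24.5 TPM in the Gclc WT livers against 27.0, 29.1, 28.6 and 25.8 TPM in the Gclc KO livers (adjusted p = 0.381), and Eif1ad was 14.4, 16.1, 12.6 and 14.3 TPM and 16.1, 16.3, 13 and 17.6 TPM (adjusted p = 0.503). Eif1, the abundant start codon gatekeeper, was 337.0 to 478.9 TPM and 348.7 to 436.1 TPM. Eif5, the GTPase-activating protein of eIF2, was 99.8, 137.8, 115.2 and 115.8 TPM in the Gclc WT livers against 139.9, 106.2, 131.9 and 168.4 TPM in the Gclc KO livers (adjusted p = 0.369). Eif5a, the hypusine-bearing factor that also helps elongation and the most abundant member at a mean of 451.2 TPM, was 446.7, 502.4, 444.3 and 477.4 TPM and 444.1, 406.2, 436.4 and 452.0 TPM (log2 fold change −0.1, adjusted p = 0.518). Eif5b, which joins the subunits, had a log2 fold change of −0.02 (95% interval −0.27 to 0.23).

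Genes around the initiation factors were read from lists of the pathway. Among all genes tested, 12.8% were higher and 8.61% lower, or 22.5% and 13.8% at an unadjusted p under 0.05 in limma. Of 10 cofactors of the eIF2 phosphatase and kinases, 3 were higher (30.0%) and 0 lower. At an unadjusted p under 0.05 limma gave 6 (60.0%) and 0. Impact, an inhibitor of GCN2, was 3.36, 4.86, 4.67 and 3.79 TPM in the Gclc WT livers against 15, 8.75, 13.4 and 17 TPM in the Gclc KO livers (2.76-fold, adjusted p = 0.00164). Dnajc3, which encodes the PERK and PKR inhibitor p58IPK, rose 1.62-fold (adjusted p = 0.02), and Ppp1r15a, which encodes GADD34, the stress-induced subunit of the eIF2 phosphatase, rose 1.57-fold (adjusted p = 0.0273). Another list held Atf4, whose product is the transcription factor translated when eIF2 is phosphorylated, and genes that it targets. Of its 18 genes, 14 passed the threshold of 1 TPM, and of these 4 were higher (28.6%) and 1 lower (7.14%). The higher ones included Atf4 itself (1.5-fold, adjusted p = 0.022) and Atf5, a related factor (2.39-fold, adjusted p = 0.00513). Fgf21, a liver hormone listed at 0 in 2 Gclc WT mice, was also higher (0.653, 0.275, 0.0 and 0.0 TPM against 2.59, 10.7, 9.41 and 10.3 TPM, adjusted p = 0.00165). It passed the threshold only through the Gclc KO livers (means 0.232 and 8.27 TPM), so its place in the count depends on the rise itself. Shmt2, a mitochondrial one-carbon enzyme, fell 1.71-fold (adjusted p = 0.00705). At an unadjusted p under 0.05 in limma, 8 of these 14 genes, Atf4 included, were higher (57.1%) and 1 lower (7.14%).

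Of 19 mTORC1 and eIF4E regulators, 2 were higher (10.5%) and 0 lower, where 12.8% of all genes were higher and 8.61% lower. At an unadjusted p under 0.05 limma gave 5 higher (26.3%) and 0 lower, against 22.5% and 13.8% of all genes. The share that rose was near the background. Ddit4, which encodes the mTORC1 inhibitor REDD1, was 2.92, 24.5, 20.3 and 5.36 TPM in the Gclc WT livers against 35.1, 33.0, 46.6 and 34.5 TPM in the Gclc KO livers (adjusted p = 0.0396), and Rps6, a ribosomal protein and S6 kinase substrate, rose 1.31-fold (adjusted p = 0.0421). Among 11 poly(A)-binding and scanning cofactors, 4 were higher (36.4%) and 1 lower (9.09%). At an unadjusted p under 0.05 limma gave 6 (54.5%) and 1 (9.09%). Denr rose 1.28-fold (adjusted p = 0.0237) and Mcts1, whose product forms a dimer with that of Denr, fell 1.53-fold (adjusted p = 0.02), while Ddx3x, an X-linked helicase, rose 1.49-fold (adjusted p = 0.0258). Neither of the mitochondrial factors Mtif2 and Mtif3 was called (log2 fold changes −0.01 and −0.04; 0 at an unadjusted p under 0.05).

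Other parts of the translation machinery had larger shares of called genes than the initiation factors. Of 81 cytosolic ribosomal protein genes tested, whose many pseudogenes can take up reads, 41 were higher (50.6%) and 0 lower, with a median log2 fold change of 0.4, led by Rps20, Rplp0 and Rpsa (1.75-, 1.58- and 1.55-fold). Of 20 cytosolic aminoacyl-tRNA synthetases, 9 were higher (45.0%) and 0 lower, with a median of 0.35, led by Nars, Rars and Lars (1.49-, 1.43- and 1.52-fold). Of 10 elongation and termination factors, 4 were higher (40.0%) and 0 lower, with a median of 0.21, led by Eef1g, Eef1b2 and Eef2 (1.46-, 1.38- and 1.41-fold). The initiation factor genes stood at 15.1% and 0.15, and all genes tested at 12.8% and 0.09. The sum of all 53 in TPM as deposited was 3690 to 4025 in the Gclc WT livers against 4145 to 5138 in the Gclc KO livers, without overlap. Without Eif4ebp3 it was 3652 to 3954 TPM against 3854 to 4590 TPM, and the genotypes overlapped. Both sums depend on the scaling of the livers. The difference between these lists was not tested.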

How the data were processed

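Livers of 4 Gclc WT and 4 Gclc KO mice were measured in 32 libraries, made per the labels from PureLink RNA with a Kapa directional mRNA kit. The labels tell the 4 libraries of a mouse apart by batch and run without defining these, and they were averaged. The authors deposited 1 table of values in TPM, named as normalized counts. Libraries summed to 999315 to 999534, which is why the values were read as TPM. TPM keep no depth, so sequencing depth is unknown. Genes above 0 numbered 13280 to 14016 in batch 1 and 12341 to 13193 in batch 2. The submitters' processing notes name bcl2fastq 2.2. For the aligner, quantifier and build: not given in the sources used here. Of 20896 rows, 75 repeated a symbol with identical values and were dropped. The dose printed is that of the labels, and the study's text gives a slightly higher one.

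The test between genotypes was limma 3.58.1 (R 4.3.3, mean-variance trend, two-sided, no covariates) on log2(TPM + 1) of genes whose mean reached 1 TPM, at a Benjamini-Hochberg adjusted p of 0.05 over all genes. Fold changes are on that scale and understate the change of low genes. Nothing states that libraries of a mouse were separate extractions, and the p-values of the test on 1 value per mouse measure the spread between mice. Those of the random effect fit also draw on the spread between libraries. The members, lists and tests were chosen with earlier results of these data known. Values per mouse are given for the 3 members of each role with the smallest adjusted p and for Eif2s1, Eif2s3x, Eif2s3y, Eif4e, Eif4ebp1, Eif4a1 and Eif6; of other lists up to 3 genes are named. Overlaps with neighbouring genes and promoters are from RefSeq (GRCm38.p6). Of the 53 members, 13 overlap another protein-coding gene there, and 0 of the 8 called ones do. Promoters of the other called genes are not shown here. The model was tested on simulated data. Alternatives covered pseudocounts of 0.1 and 0.5 TPM, a filter at 10 TPM or none, 3 scalings (size factors computed on TPM), medians of libraries, single batches and runs, a random effect of the mouse, a robust or untrended fit, blocks for the mouse number and tag series, Xist, and each mouse left out. Leaving out Gclc WT 1 and Gclc WT 3 together was added after seeing the data. Python 3.11.15 and pandas 2.3.3 were used.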

Additional observations from a re-analysis of the deposited data

Results flagged for a closer look

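Each genotype's 4 values of every member were searched for a liver far from the other 3, on the log2 scale. Of 105 sets of 4 mice, 9 had one (8.57%), where chance gives about 1 in 20. In the eIF2B genes, Eif2b2 stood at 18.6 TPM in Gclc WT 3, against 13.9 to 14.5 TPM in the other Gclc WT mice, and at 16.6 TPM in Gclc KO 3, against 18.7 to 19.1 TPM in the other Gclc KO mice, and Eif2b3 was 19.6 TPM in Gclc KO 4, against 14.8 to 15.3 TPM. Eif2d was 26.9 TPM in Gclc KO 2, against 34.3 to 35.9 TPM. Eif4ebp1 was 60.2 TPM in Gclc KO 2, against 90.6 to 92.1 TPM in the other Gclc KO mice. Gclc WT 4 was the high liver for Eif3g, at 100.4 TPM against 87.7 to 89.4 TPM, and for Eif3k, at 90.0 TPM against 80 to 80.7 TPM. Eif2s3y was 0.0 TPM in Gclc WT 3, against 37.4 to 49.4 TPM, in a liver with Xist. Eif3j1 was 15.1 TPM in Gclc WT 1, against 0.0 TPM in the other Gclc WT mice, and that value comes from 1 library in which Eif3j2 was 0.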

How the results depend on the processing

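Of the called members, Eif1a, Eif2b4, Eif4ebp3 and Eif6 were called in all 28 alternatives, Eif2b3 in 27, Eif2ak3 and Eif4ebp1 in 19 each and Eif4g2 in 14. No called member changed direction in any of these alternatives. Over all members and alternatives, 33 values lost a call and 41 gained one, while 1406 stayed on their side of the threshold. The 4 members with a mean under 10 TPM have no value with the filter at 10 TPM. The count of members called lower, 0 as reported, was 1 with a filter at 10 TPM, 2 with the trimmed mean scaling, 2 with the median-of-ratios scaling, 1 with the total without the 50 most abundant genes, 1 in batch 2 libraries, 1 in run 2 libraries and 3 with the mouse as a random effect, where 20 were higher. The cause was not tested, except that the random effect fit uses 32 libraries in place of 8 means, with the same correlation within a mouse for every gene. With each mouse left out in turn, the genes called numbered 1255 (without Gclc WT 2) to 2801 (without Gclc WT 3), against 2411, with 1477 without Gclc WT 4, and the members higher 5 (without Gclc WT 2, Gclc KO 1 or Gclc KO 4) to 9 (without Gclc WT 3). With each mouse left out, the medians of the Eif2, Eif3 and Eif4 genes were 0.13 to 0.22, 0.18 to 0.26, and 0.04 to 0.16, lowest without Gclc KO 4, and with either the trimmed mean or the median-of-ratios scaling they were 0.08, 0.14 and 0.02, the lowest of the alternatives. They were highest in mice without Xist, at 0.3, 0.3 and 0.2. The labels do not say whether mice of the same number were paired, although their mouse tags are close. Deviations of same-numbered mice correlated at 0.0623, −0.12, 0.345 and 0.26 across genes. Gclc WT 3 and Gclc WT 4 each correlated most with the Gclc KO mouse of their own number, and Gclc WT 1 and Gclc WT 2 with Gclc KO 4. These correlations cannot decide whether the mice were paired. With the replicate block, 2215 genes were called and again 8 members higher and 0 lower, with Eif2b1 gained (adjusted p = 0.0498) and Eif4g2 lost (adjusted p = 0.104). Unknown depth limits what can be said of members under a few TPM, such as Eif2ak4.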
